A study of Mus musculus with 98 samples.

Results

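Clcn1 encodes the chloride channel of the skeletal muscle membrane, and it was followed here through 98 RNA sequencing libraries by its single expression value and by every splicing event that carries its name. The gene was 1 of 24528 genes of the expression table. Its events numbered 37 of the 117460 events of the whole splicing table and 1 of the 36 exons of a shorter table that the authors deposited beside it. Of the 37 events, 27 were skipped exons, 8 were pairs of mutually exclusive exons and 2 were alternative 3' splice sites. Exon 7a, a cassette exon, took part in 6 of them, and 18 of the 37 had a value in all 98 libraries.

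The mice were of 2 genotypes. FVB/NJ mice were the wild type, and HSALR mice, all homozygous, carry a human skeletal actin transgene (hACTA1) whose transcript holds an expanded CUG repeat, made under the actin promoter in skeletal muscle. Treated HSALR mice received a (CAG)7 phosphorodiamidate morpholino, either unconjugated (PMO) or joined to a delivery moiety (EEV4-PMO), and the others received the vehicle, PBS. The first of 5 cohorts was gastrocnemius taken 7 days after injection, with 4 libraries of FVB/NJ and 8 of HSALR mice given PBS and 4 of HSALR mice for each of PMO 30 mg/kg, EEV4-PMO 15 mg/kg and EEV4-PMO 30 mg/kg. All further treated groups had the 15 mg/kg dose of EEV4-PMO. Gastrocnemius was followed for 1, 2 and 4 days and quadriceps for 1, 2, 4 and 7 days, each muscle with its own FVB/NJ and HSALR PBS groups of 4 days and with 4 libraries in each group. The fourth cohort split quadriceps RNA of HSALR mice into total RNA and nascent RNA, which had taken up ethynyl uridine (EU), with 4 PBS libraries of 4 days and 3 treated libraries each of 1 and 2 days for either kind of RNA. In the time courses and the cohort with nascent RNA, PBS was sampled at 4 days only. Against PBS, treatment at 1, 2 and 7 days there cannot be told apart from time since injection. The fifth cohort was HSALR quadriceps after 3 months, with 6 treated and 4 PBS libraries. The labels give no age or sex and do not say whether tissue was pooled, so p-values measure the spread between libraries. The title of the study asks how transcript turnover bears on the splicing rescue that is seen after delivery.

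As background, the channel carries the chloride current that steadies the resting muscle membrane, and its loss causes myotonia, the delayed relaxation of muscle. Muscleblind proteins are held by expanded CUG repeats, and in muscle of myotonic dystrophy and of HSALR mice the Clcn1 message keeps exon 7a, which adult muscle normally skips. That exon shifts the reading frame, and messages with an early stop codon can be removed by nonsense-mediated decay, a pathway that acts on messages once they are translated in the cytoplasm.

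Clcn1 (ENSMUSG00000029862.15) lies on the forward strand of mouse chromosome 6 from 42286685 to 42315756 in GRCm38. GENCODE vM21 annotates 10 transcripts, of which 2 are coding and 6 are marked for nonsense-mediated decay. The 2 transcripts that hold exon 7a are among those 6. Exon 7a spans 79 bases, chr6:42293444-42293522, between exon 6 at chr6:42292941-42293018 and exon 7 at chr6:42294078-42294156, all numbered along a coding transcript. Exon 7 also has an acceptor 3 bases upstream, which makes an exon of 82 bases that starts at 42294075. The exons are printed because the results turn on which of them are joined. In exon 7a, capitals mark the words CGCC or CGCT or TGCC or TGCT, the form of site that muscleblind proteins bind, searched on the transcribed strand. In exon 7, the first capitals are the bases that only the upstream acceptor adds, and the second mark the stop codon that is met when exon 7a precedes it. Exon 6 has no capitals.
exon 6: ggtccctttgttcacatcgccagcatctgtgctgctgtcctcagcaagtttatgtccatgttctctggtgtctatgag
exon 7a: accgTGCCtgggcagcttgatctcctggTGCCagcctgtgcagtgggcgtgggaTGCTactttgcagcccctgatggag
exon 7 with the upstream acceptor: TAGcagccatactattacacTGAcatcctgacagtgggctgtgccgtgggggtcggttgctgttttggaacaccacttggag

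Read in the frame of exon 6, the join of exon 6 to exon 7 from its downstream acceptor met no stop codon in these exons. Joined through exon 7a, the frame met TGA, whose first base was base 97 after exon 6 with the downstream acceptor and base 100 with the upstream one. Joined directly to the upstream acceptor, exon 6 was followed by TAG at base 1. The 4 words occurred 3 times in exon 7a, 3 times in exon 6 and 2 times in exon 7. Of 1974 annotated exons of 79 bases, 68.84% held at least 1 of these words and 12.56% held 3 or more. The longest run of CTG in that transcript and in one that holds exon 7a was 2 units.

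TPM of hACTA1 ran from 42.1 to 81.6 in the 12 FVB/NJ libraries and from 5726 to 32980 in the 86 HSALR libraries, so no library went against its genotype label. Summed TPM of 8 skeletal muscle markers was 78070 to 215700, lowest in nascent RNA. Slow muscle markers reached 12070 TPM in HSALR PBS of the gastrocnemius time course. The median was 2953 TPM in that group and 1051 TPM over all libraries. The part of slow fibres in the Clcn1 values was not tested. Replicate 2 of gastrocnemius at 4 days after EEV4-PMO had 361 TPM summed over 6 lymphocyte markers, where the median of all libraries was 0.601, and 960 TPM over 5 adipocyte markers. Replicate 1 of the FVB/NJ quadriceps time course had 1021 TPM of adipocyte and 1133 TPM of brown fat markers, against medians of 45.9 and 3.52.

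Splicing is given as PSI, the fraction of transcripts of an event, from 0 to 1, that take the inclusion form. In the event of the authors' shorter table, exon 7a lay between exon 6 and exon 7 from its downstream acceptor. HSALR gastrocnemius with PBS included exon 7a far more often than wild type, EEV4-PMO lowered it at both doses, and unconjugated PMO gave no call. The FVB/NJ libraries stood at 0.099, 0.069, 0.086 and 0.066 (0.080 ± 0.015, SD, n = 4). HSALR PBS libraries ran from 0.341 to 0.668 with a median of 0.590 (0.560 ± 0.114, SD, n = 8). The groups did not overlap, and limma gave a difference of -0.480 (SE 0.0436, adjusted p = 6.7e-07).

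The 4 libraries with unconjugated PMO stood at 0.518, 0.548, 0.547 and 0.460 (0.518 ± 0.041, SD), all within the range of HSALR PBS. The difference from HSALR PBS was -0.0414 with a 95% interval of -0.132 to 0.0497. With EEV4-PMO at 15 mg/kg PSI was 0.168, 0.175, 0.149 and 0.206, below every HSALR PBS library and above every FVB/NJ library (difference from HSALR PBS -0.385, limma adjusted p = 5.1e-05). At 30 mg/kg it was 0.117, 0.122, 0.086 and 0.132, all below the lowest library of 15 mg/kg, at 0.149. This dose differed from HSALR PBS by -0.445 (adjusted p = 3.2e-06) and overlapped with FVB/NJ. At the same dose, conjugated and unconjugated oligonucleotide differed by -0.404 (SE 0.0503, adjusted p = 9.5e-05). Between the doses of EEV4-PMO the difference was -0.0603 with a 95% interval of -0.165 to 0.0449, which did not pass the test. The differences from FVB/NJ, 0.0945 (95% interval -0.0106 to 0.20) at 15 mg/kg and 0.0343 (-0.0709 to 0.139) at 30 mg/kg, did not pass either.

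**Figure D1:**
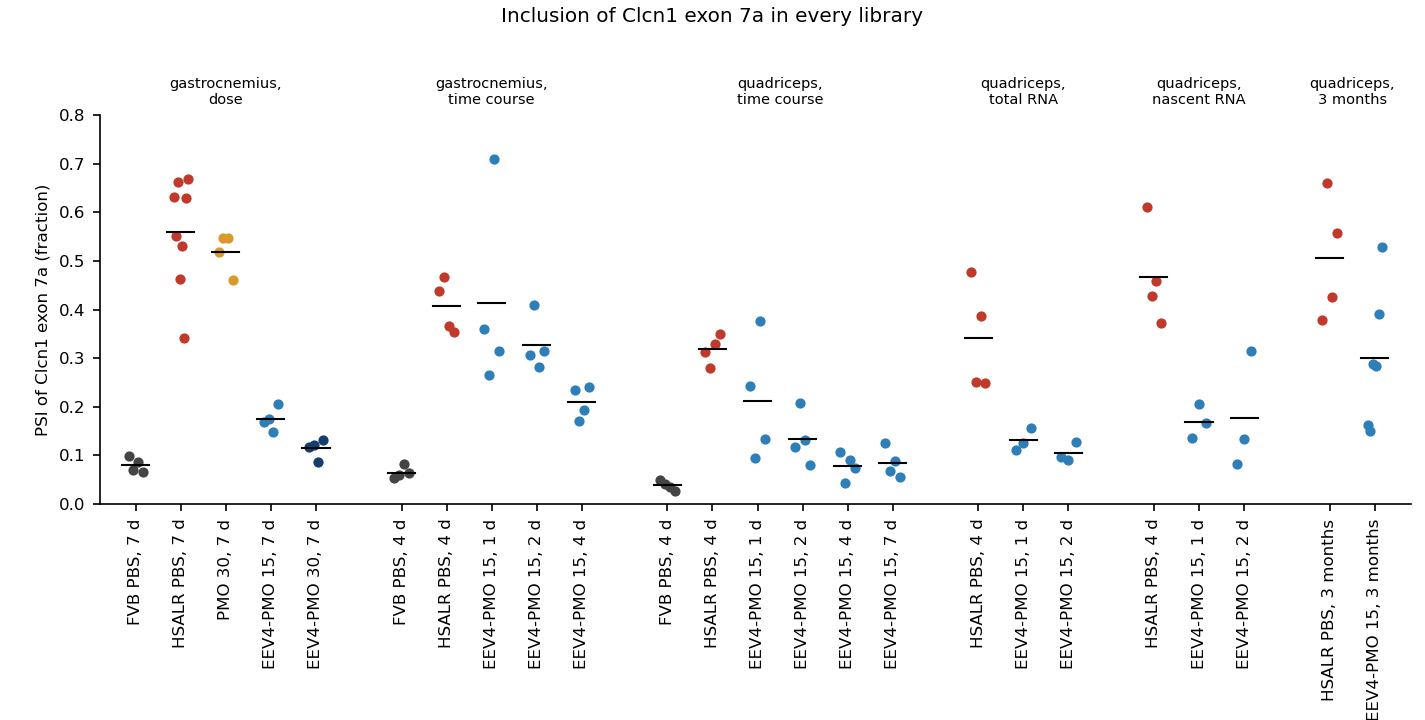
PSI of Clcn1 exon 7a between exon 6 and exon 7 from the downstream acceptor (vertical axis, fraction) in all 98 libraries, by group (horizontal axis; numbers after PMO are mg/kg). Points are libraries, bars are group means. FVB/NJ libraries lie between 0.027 and 0.099, and 1 library at 1 day in gastrocnemius stands at 0.709.

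An event counts as called where PSI differed by at least 0.1 and the adjusted p was under 0.05. By this rule 5 of 30 Clcn1 events tested in this cohort were called between FVB/NJ and HSALR PBS, 1 higher and 4 lower in FVB/NJ, where 0.555% of all 76968 events were called. EEV4-PMO called the same number, 5 of 30, at 15 mg/kg (0.309% of all events) and at 30 mg/kg (0.457%), and in conjugated against unconjugated oligonucleotide (0.377%). In each of these comparisons the called events were the same 5, of which 4 hold exon 7a. Unconjugated PMO against HSALR PBS called 0 Clcn1 events and 0 of all events (0.0%), where 2088 of all had an unadjusted p under 0.05. Between the doses and between 30 mg/kg and FVB/NJ 0 Clcn1 events were called by limma, where 0.0182% and 0.0702% of all were. Such events of one gene share junctions, so these are not 5 separate measurements.

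The same exon was also tabulated with the longer exon 7, from the upstream acceptor, as its downstream flank. By the definition of these events both share the join of exon 6 to exon 7a and differ in the joins to exon 7. As skipping, each counts only joins of exon 6 to its own acceptor of exon 7, so their PSI values are on different scales. With the longer flank, PSI was higher in 96 of 98 libraries, and the excess had a median of 0.297 and a range of -0.035 to 0.757. In FVB/NJ gastrocnemius of 7 days the libraries stood at 0.138, 0.279, 0.227 and 0.164. HSALR PBS ran from 0.787 to 0.958 with a median of 0.857, so the groups were again apart. After EEV4-PMO at 15 mg/kg the values were 0.395, 0.436, 0.586 and 0.566, and at 30 mg/kg 0.391, 0.358, 0.212 and 0.225.

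EEV4-PMO lowered the exon with either flank, and with the longer one it differed from HSALR PBS by -0.367 at the lower dose (limma adjusted p = 1.6e-04) and -0.566 at the higher (adjusted p = 2.1e-07). Against wild type the flanks gave different calls. With the longer flank, EEV4-PMO at 15 mg/kg differed from FVB/NJ by 0.294 (limma adjusted p = 0.014), a call that the shorter flank did not give. It was the 1 Clcn1 event called in this comparison, where 0.144% of all events were called. Between the doses the difference was -0.199 (95% interval -0.310 to -0.0886, adjusted p = 0.893), and the libraries did not overlap. The 2 tables of the authors hold the shorter flank with values that differed in 70 of 98 libraries, by a median of 0.006 among those 70 and at most 0.068.

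**Figure D2:**
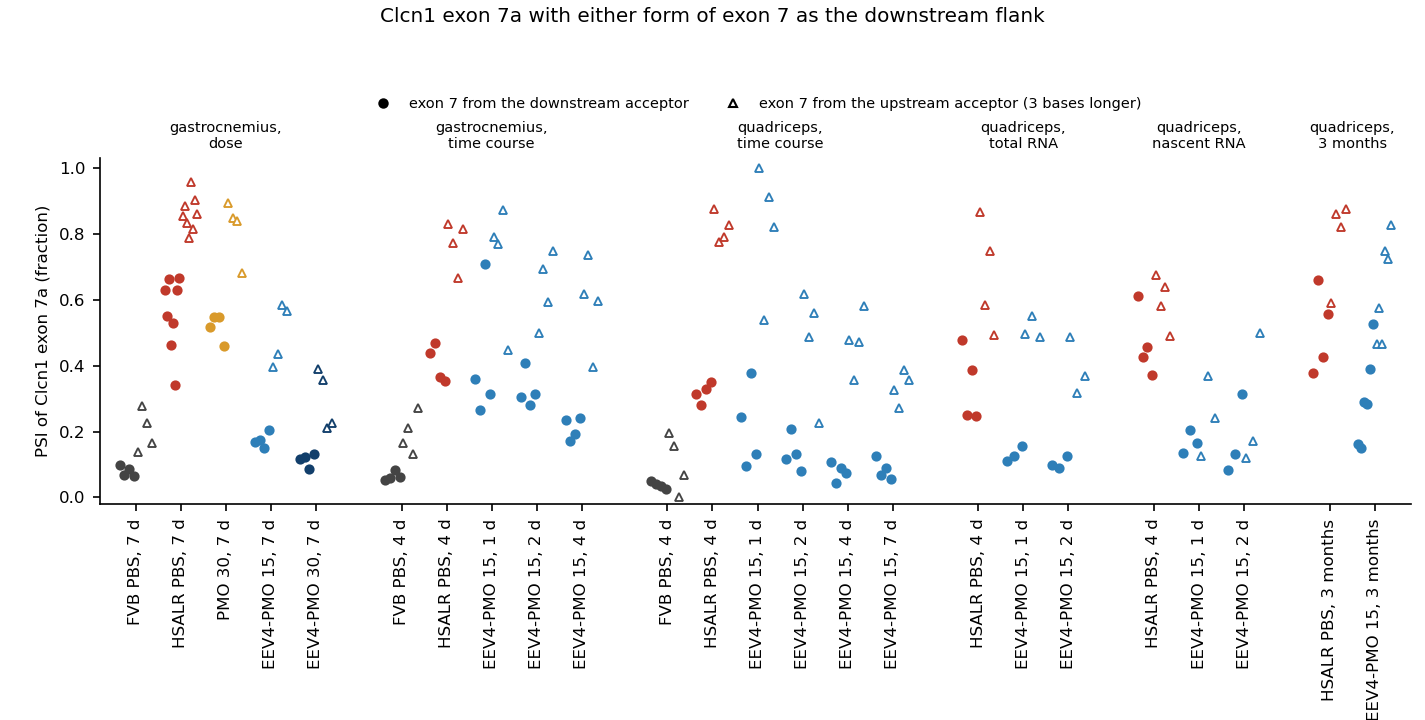
PSI of Clcn1 exon 7a (vertical axis, fraction) with exon 7 from the downstream acceptor (filled circles) and from the upstream acceptor (open triangles) as the downstream flank, in all 98 libraries by group (horizontal axis; numbers after PMO are mg/kg). Triangles lie above circles in 96 libraries, and the mean gap is at most 0.130 in FVB/NJ and nascent groups.

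Mutually exclusive events showed the exon in another way, since they set exon 7a against exon 7 between exon 6 and exon 8. Both annotated transcripts with exon 7a also hold exon 7, so these values are not shares of messages with exon 7a in place of exon 7. Against exon 7 from the downstream acceptor PSI of exon 7a was 0.027 ± 0.014 in FVB/NJ (SD, n = 4) and 0.236 ± 0.064 in HSALR PBS (SD, n = 8), a difference of -0.209 (adjusted p = 1.9e-04). With EEV4-PMO it was 0.072 ± 0.010 at the lower dose and 0.042 ± 0.011 at the higher (SD, n = 4 each), with differences from HSALR PBS of -0.164 (adjusted p = 0.0054) and -0.194 (adjusted p = 6.0e-04). Against the longer exon 7 PSI was 0.046 ± 0.023 in FVB/NJ and 0.295 ± 0.066 in HSALR PBS (adjusted p = 1.2e-04). The event called in the opposite direction sets exon 7 against exon 8 between exon 6 and exon 9. PSI of exon 7 in it was 0.459 ± 0.020 in FVB/NJ and 0.237 ± 0.064 in HSALR PBS (difference 0.222, adjusted p = 6.7e-05). This does not show that either exon is skipped. As skipped exons, exon 7 and exon 8 had PSI of at least 0.994 and 0.989 in the 44 libraries with a value. The like event of exons 2 and 3, whose skipped-exon events had medians of 1, had a median PSI of 0.462. For exon 7 against exon 8, EEV4-PMO gave PSI of 0.393 ± 0.033 at the lower dose (adjusted p = 0.0075) and at the higher 0.419 ± 0.043 (adjusted p = 0.0011), while PMO gave 0.259 ± 0.026 (difference 0.022, adjusted p = 1.0). In the time course this event was not called between FVB/NJ and HSALR PBS in gastrocnemius (difference 0.105, adjusted p = 0.384) or quadriceps (0.0745, adjusted p = 0.491).

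Over the first days after EEV4-PMO at 15 mg/kg, exon 7a with the shorter flank was called lower than in HSALR PBS at 4 and 7 days in quadriceps and at none of 1, 2 and 4 days in the gastrocnemius time course, and no test of the difference between the muscles was passed. In gastrocnemius, FVB/NJ libraries stood at 0.054, 0.059, 0.082 and 0.063, and HSALR PBS at 0.438, 0.468, 0.367 and 0.354. The difference of -0.342 was called (adjusted p = 0.036), but its adjusted p was 0.0634 to 0.125 when any 1 of the 8 libraries was left out. Of 24 Clcn1 events tested, 4 were called, where 0.330% of all events were.

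One day after EEV4-PMO the gastrocnemius libraries stood at 0.361, 0.266, 0.709 and 0.315. Replicate 3, at 0.709, exceeded every HSALR library of that time course, and its hACTA1 share was 2.70% of all TPM against 1.85 to 1.97% in the other 3 libraries of the group. The group differed from HSALR PBS by 0.006, and by -0.0928 without replicate 3. At 2 days the values were 0.306, 0.409, 0.282 and 0.315, which overlapped with HSALR PBS (difference -0.0788, 95% interval -0.223 to 0.0654). At 4 days they were 0.235, 0.171, 0.194 and 0.241, all below the lowest HSALR PBS library, with a difference of -0.197 that was not called (unadjusted p = 0.0108, adjusted p = 0.795). Without replicate 2, which carries lymphocyte and fat markers, that difference was -0.183.

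At 1, 2 and 4 days in gastrocnemius, 0 Clcn1 events were called by limma against HSALR PBS, where 0.0%, 0.0% and 0.00667% of all events were called. At 1 and 2 days 2100 and 1982 of all events had an unadjusted p under 0.05. Against FVB/NJ, 3 of 24 Clcn1 events were called at 1 day (0.402% of all events), among them exon 7a with the shorter flank (0.348, adjusted p = 0.026). Without replicate 3 that difference was 0.250 and was still called (adjusted p = 0.0013), and the call was lost in 5 of the 8 fits that left out 1 library. With all libraries kept, a fit of only these groups gave an adjusted p of 0.713. With the longer flank the exon was called against FVB/NJ at 1 day (0.53, adjusted p = 0.0058) and at 2 days (0.440, adjusted p = 0.033), the 1 Clcn1 event called at 2 days, where 0.299% of all events were.

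In quadriceps the group means of FVB/NJ and HSALR PBS, 0.0383 and 0.318, were below those of gastrocnemius at the same time, 0.0645 and 0.407. Levels of separate cohorts were not tested against each other. FVB/NJ libraries stood at 0.050, 0.041, 0.035 and 0.027, and HSALR PBS at 0.313, 0.28, 0.329 and 0.350. These groups were apart, with a difference of -0.28 (SE 0.0417, adjusted p = 0.0011), and 4 of 23 Clcn1 events were called, where 0.449% of all were.

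At 1 day after EEV4-PMO the quadriceps libraries were spread widely, at 0.243, 0.095, 0.377 and 0.133, and overlapped with HSALR PBS. At 2 days the values were 0.118, 0.207, 0.131 and 0.080, at 4 days 0.108, 0.043, 0.090 and 0.074, and at 7 days 0.125, 0.067, 0.088 and 0.055. From 2 days on, every treated library lay below every HSALR PBS library. The difference from HSALR PBS, which was sampled at 4 days only, was -0.184 at 2 days (adjusted p = 0.170), -0.239 at 4 days (adjusted p = 0.016) and -0.234 at 7 days (adjusted p = 0.011). Clcn1 events called were 0 of 23 at 1 day (0.0% of all, with 1973 at an unadjusted p under 0.05), 0 at 2 days (0.0145%), 3 at 4 days (0.150%) and 4 at 7 days (0.256%). Leaving out 1 library ended the call of exon 7a at 4 days in 4 of 8 cases and at 7 days in 2 of 8.

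At 1 day against FVB/NJ, 1 Clcn1 event was called in quadriceps, exon 7a with the longer flank (0.713, adjusted p = 1.0e-04), where 0.274% of all were.

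With the longer flank, quadriceps gave a call against HSALR PBS at 7 days only. At 1 day its values were 1, 0.540, 0.912 and 0.822, close to those of HSALR PBS at 0.876, 0.777, 0.790 and 0.828 (difference 0.00075, 95% interval -0.18 to 0.18). The difference was -0.346 at 2 days (adjusted p = 0.247) and -0.345 at 4 days (adjusted p = 0.179), and that of 7 days was -0.482 (adjusted p = 0.011). The gap between flanks within a library averaged 0.607 ± 0.142 at 1 day (SD, n = 4), against 0.50 ± 0.045 in HSALR PBS and 0.067 ± 0.081 in FVB/NJ quadriceps. Whether the flanks differed in time course was not tested, since the events share reads.

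The change from HSALR PBS in quadriceps minus that in gastrocnemius was -0.112 at 1 day (95% interval -0.271 to 0.0471, adjusted p = 0.772), -0.105 at 2 days (-0.264 to 0.0538, adjusted p = 0.834) and -0.0428 at 4 days (-0.202 to 0.116, adjusted p = 1.0). In these tests 0.0%, 0.0% and 0.00554% of all events were called, and 1966, 1956 and 2001 had an unadjusted p under 0.05. Libraries of the same number in both muscles deviated together at 1 and 2 days, and the labels do not say whether they share a mouse. With them as pairs, the intervals were -0.199 to -0.025 at 1 day (adjusted p = 0.747), -0.192 to -0.0182 at 2 days (adjusted p = 0.773) and -0.130 to 0.0443 at 4 days (adjusted p = 0.965), and none was called.

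In the cohort with nascent RNA, every treated library had less exon 7a with the shorter flank than every HSALR PBS library, in both kinds of RNA, and the differences were not called. In total RNA, HSALR PBS stood at 0.478, 0.251, 0.386 and 0.248, the libraries of 1 day at 0.112, 0.126 and 0.157, and those of 2 days at 0.097, 0.090 and 0.127. In nascent RNA, HSALR PBS stood at 0.611, 0.428, 0.458 and 0.373, the libraries of 1 day at 0.135, 0.206 and 0.166, and those of 2 days at 0.083, 0.133 and 0.314. The spread among HSALR PBS libraries was wide in both kinds of RNA, and 1 nascent library of 2 days stood apart at 0.314.

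The difference in total RNA was -0.209 at 1 day (95% interval -0.343 to -0.0753, adjusted p = 1.0) and -0.236 at 2 days (-0.370 to -0.102, adjusted p = 0.859). In nascent RNA it was -0.299 at 1 day (-0.432 to -0.165, adjusted p = 0.101) and -0.291 at 2 days (-0.425 to -0.157, adjusted p = 0.086). No Clcn1 event of 30 was called in these comparisons, where 0.00138% and 0.0151% of all events in total RNA and 0.0785% and 0.123% in nascent RNA were called. Without replicate 3 of nascent RNA at 2 days, at 0.314, that difference was -0.360 and was called (adjusted p = 0.0081). The change in nascent minus that in total RNA was -0.0894 at 1 day (-0.279 to 0.0998, adjusted p = 0.876) and -0.0548 at 2 days (-0.244 to 0.134, adjusted p = 0.897), where 0.00275% and 0.0% of all events were called and 2233 and 2737 had an unadjusted p under 0.05. With the libraries as pairs these intervals were -0.198 to 0.0193 (limma adjusted p = 0.88) and -0.163 to 0.0539 (adjusted p = 0.794).

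In HSALR PBS mice, nascent minus total RNA gave opposite signs for the flanks, 0.127 with the shorter one (95% interval 0.0029 to 0.251, adjusted p = 0.407) and -0.077 with the longer one (-0.265 to 0.111, adjusted p = 0.810), and neither was called. With nascent and total libraries as pairs the intervals were 0.0556 to 0.198 (limma adjusted p = 0.128) and -0.243 to 0.0894 (adjusted p = 0.727), again with no call. The same opposite signs stood at 1 day, 0.0373 and -0.268, and at 2 days, 0.072 and -0.127. The gap between flanks within a library averaged 0.129 ± 0.049, 0.0753 ± 0.0860 and 0.0873 ± 0.0863 in nascent RNA of PBS, 1 day and 2 days. In total RNA of the same conditions it was 0.333 ± 0.063, 0.380 ± 0.048 and 0.287 ± 0.090 (SD, n = 4, 3 and 3).

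As skipping, the longer flank counts only joins of exon 6 to the upstream acceptor of exon 7. The shorter flank counts only joins of exon 6 to the downstream acceptor. The signs and the gap of the flanks are therefore no measure of exon 7a alone. The choice of acceptor of exon 7 was measured on its own, and its part in those signs and gaps was not tested. After exon 6, the upstream acceptor, which puts TAG straight after exon 6, took a larger share in nascent than in total RNA in all 3 conditions. In total RNA its PSI was 0.143, 0.163, 0.126 and 0.183 in HSALR PBS, 0.056, 0.061 and 0.120 at 1 day and 0.065, 0.083 and 0.121 at 2 days. In nascent RNA it was 0.345, 0.261, 0.262 and 0.283 in HSALR PBS, 0.355, 0.198 and 0.237 at 1 day and 0.209, 0.231 and 0.179 at 2 days. Nascent and total libraries did not overlap in any condition.

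The difference was 0.134 in HSALR PBS (limma adjusted p = 0.023), 0.184 at 1 day (adjusted p = 0.018) and 0.117 at 2 days (adjusted p = 0.116). It was the 1 Clcn1 event called in HSALR PBS and at 1 day, and 0 were called at 2 days, where 1.75%, 0.604% and 1.11% of all 72651 events were called. With nascent and total libraries of one condition and number as pairs, the limma adjusted p was 0.115, 0.140 and 0.271. The calls were lost in that fit, which was chosen after seeing the data. In it the calls over all events went from 1269, 439 and 805 to 593, 60 and 126.

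Outside this cohort, group means of the upstream acceptor after exon 6 were 0.120 to 0.188 in gastrocnemius, 0.0515 to 0.095 in the quadriceps time course and 0.147 to 0.196 at 3 months, and no comparison of genotype or treatment called it. After exon 7a the share of the upstream acceptor was 0.135 to 0.308 in all groups but nascent RNA at 2 days, whose libraries stood at 0, 0 and 0.119.

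**Figure D3:**
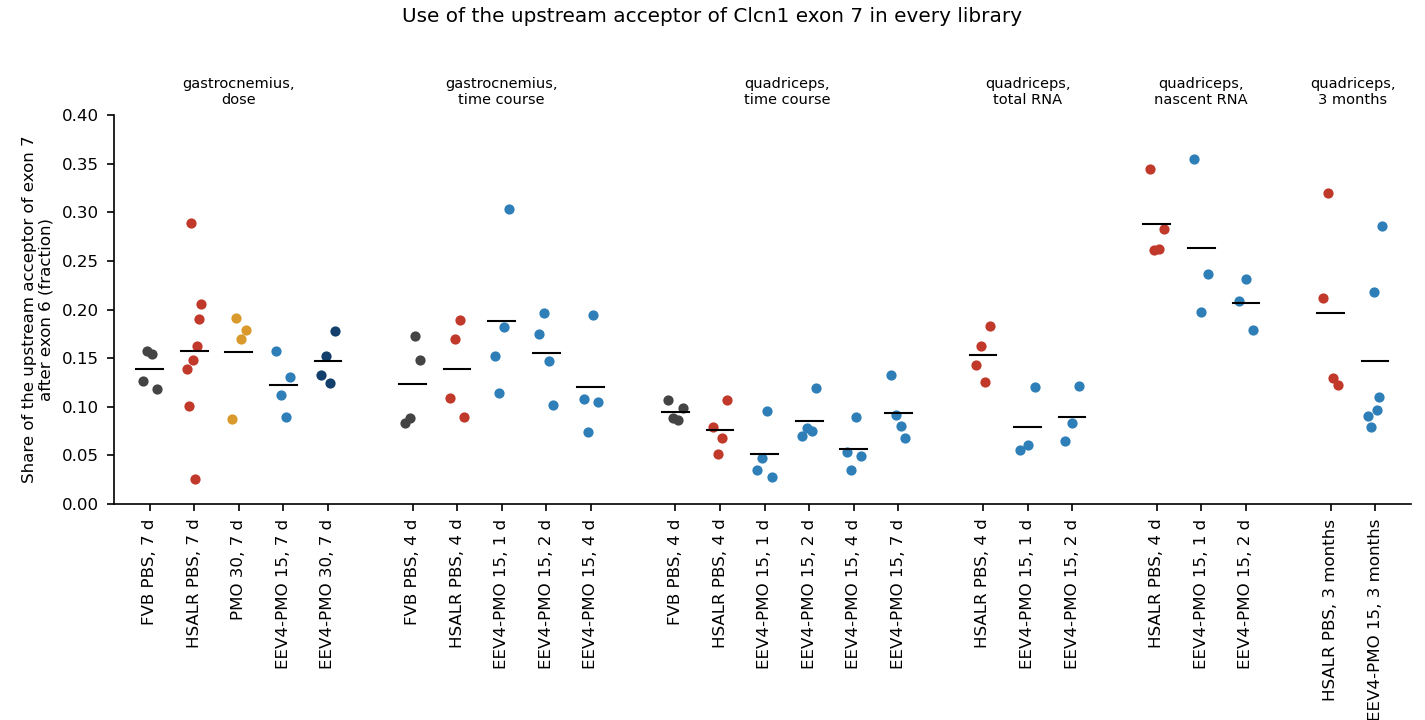
Share of the upstream acceptor of Clcn1 exon 7 among joins from exon 6 (vertical axis, PSI as a fraction) in all 98 libraries by group (horizontal axis; numbers after PMO are mg/kg). Points are libraries and bars are group means. Nascent libraries lie between 0.179 and 0.355, above all total RNA libraries of their own condition.

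At 3 months, HSALR PBS quadriceps stood at 0.379, 0.661, 0.426 and 0.558 for exon 7a with the shorter flank. The 6 libraries after EEV4-PMO ran from 0.151 to 0.528 with a median of 0.287. The groups overlapped, and the difference of -0.205 (95% interval -0.395 to -0.0158, unadjusted p = 0.0367, adjusted p = 0.758) was not called. With the longer flank it was -0.152 (-0.365 to 0.0621). No event of the whole table was called here, 0 of 31227 (0.0%) by limma, with 1320 at an unadjusted p under 0.05.

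Clcn1 RNA was more abundant in wild type than in HSALR muscle. It rose after EEV4-PMO in gastrocnemius of 7 days, in quadriceps at 2, 4 and 7 days and in total RNA of 2 days, and no change was called in the other treated groups. TPM is a level per transcript length that sums to the same total in each library. In gastrocnemius of 7 days, FVB/NJ libraries held 140.4, 165.6, 152.5 and 151.1 TPM, and HSALR PBS ran from 90.1 to 109.2 with a median of 97.9. The groups were apart, with a difference of 0.63 on the log2(TPM + 1) scale (SE 0.065, limma adjusted p = 4.6e-07). PMO libraries held 105.3, 109.3, 107.1 and 91.98 TPM, within the range of HSALR PBS but for the highest, 109.3 against 109.2 (difference 0.08, 95% interval -0.06 to 0.21).

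EEV4-PMO at 15 mg/kg gave 136.2, 127.6, 159.4 and 141.2 TPM (log2 difference from HSALR PBS 0.52, adjusted p = 3.3e-05), and 30 mg/kg gave 152.2, 164.9, 177.7 and 156.2 TPM (0.73, adjusted p = 1.6e-07). All treated libraries exceeded all HSALR PBS libraries and both doses overlapped with FVB/NJ. Conjugated against unconjugated oligonucleotide at 30 mg/kg differed by 0.65 (adjusted p = 6.8e-06). The higher dose exceeded the lower by 0.21 (95% interval 0.05 to 0.36, adjusted p = 0.795). Between the doses 0.0432% of genes were called. Of all 13885 genes tested, 20.6% were called between FVB/NJ and HSALR PBS, 0.0% with PMO (1086 genes at an unadjusted p under 0.05), 11.1% at 15 mg/kg, 15.0% at 30 mg/kg and 11.7% between conjugated and unconjugated oligonucleotide. In bulk muscle, fewer cells that express a gene and less RNA per cell cannot be told apart.

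**Figure D4:**
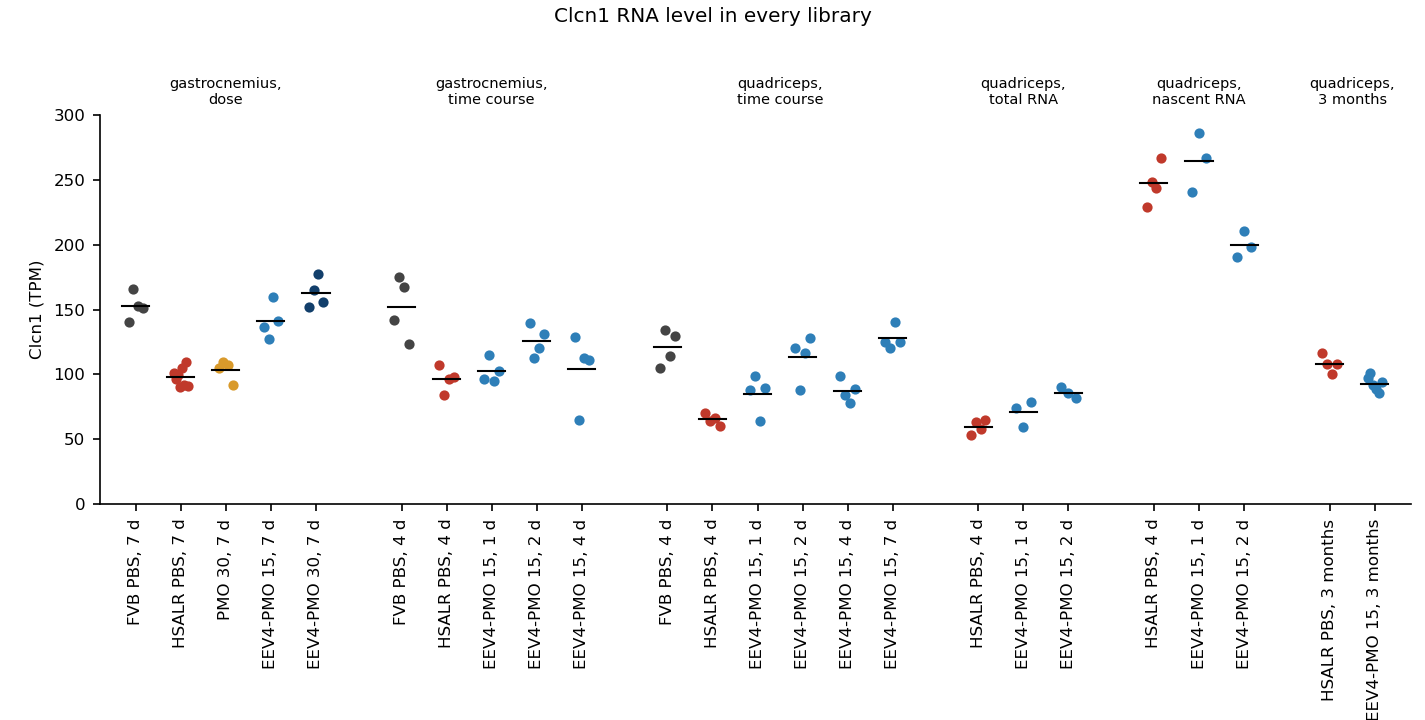
Clcn1 level (vertical axis, TPM) in all 98 libraries by group (horizontal axis; numbers after PMO are mg/kg). Points are libraries and bars are group means. HSALR PBS gastrocnemius of 7 days lies between 90.1 and 109.2 TPM, below all FVB/NJ and EEV4-PMO libraries of that cohort, and nascent RNA lies between 190.9 and 285.9 TPM.

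In the gastrocnemius time course, FVB/NJ held 142.0, 175.1, 167.6 and 123.5 TPM and HSALR PBS 107.5, 84.5, 96.4 and 97.7 TPM (log2 difference 0.64, adjusted p = 0.019), where 8.26% of 14280 genes were called. Group means after EEV4-PMO were 102.4 ± 9.2 TPM at 1 day, 126.1 ± 11.7 at 2 days and 104.4 ± 27.7 at 4 days (SD, n = 4 each), and none was called against HSALR PBS, where 1.38%, 1.07% and 0.518% of genes were. At 2 days the 4 libraries lay above all HSALR PBS libraries (0.38, unadjusted p = 0.0302, adjusted p = 0.336). At 4 days replicate 2, with the lymphocyte and fat markers, held 64.7 TPM against 111.3 to 129.0 in the others. The difference from HSALR PBS was 0.07 with it and 0.28 without it, and the part of those markers in it was not tested. Against FVB/NJ, Clcn1 was lower at 1 day (log2 difference -0.56, adjusted p = 0.032, 11.7% of genes called) and at 4 days (-0.57, adjusted p = 0.031, 11.8% called, where the median of all genes was 0.18). Without replicate 2 the latter was -0.36 and was not called, and the call at 1 day was lost in 5 of 8 fits that left out 1 library. The test of FVB/NJ against HSALR PBS gave an adjusted p of 0.014 to 0.068 when 1 library was left out, above 0.05 in 3 of 8 cases.

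Quadriceps gave calls at 3 of 4 times. FVB/NJ libraries held 104.8, 134.4, 114.0 and 129.9 TPM and HSALR PBS 70.3, 64.3, 66.2 and 60.6 TPM, with a log2 difference of 0.87 (adjusted p = 5.1e-05). It was 0.94 without FVB/NJ replicate 1, which carries fat markers and was the lowest of its group. After EEV4-PMO the libraries held 88.3, 98.8, 64.0 and 89.5 TPM at 1 day, 120.2, 87.9, 116.5 and 128.3 at 2 days, 98.9, 84.4, 77.7 and 88.4 at 4 days and 125.3, 120.2, 140.4 and 125.2 at 7 days. From 2 days on all lay above HSALR PBS, and the mean of 4 days, 87.4 TPM, was below those of 2 and 7 days, 113.2 and 127.8 TPM.

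The log2 differences from HSALR PBS were 0.36 at 1 day (adjusted p = 0.239), 0.77 at 2 days (adjusted p = 0.0023), 0.41 at 4 days (adjusted p = 0.039) and 0.96 at 7 days (adjusted p = 3.8e-05), where 0.615%, 1.94%, 9.10% and 13.9% of 13177 genes were called. Between FVB/NJ and HSALR PBS 13.7% were. The call at 4 days was lost in 7 of 8 fits that left out 1 library. At 1 day Clcn1 was below FVB/NJ by a log2 difference of -0.51 (adjusted p = 0.0086, 11.1% of genes called), a call that was lost with equal medians (adjusted p = 0.0511) and when both groups were fitted by themselves (adjusted p = 0.0841). Day 7 exceeded day 4 by 0.55 (adjusted p = 0.0087, 7.34% of genes called), without overlap, and the difference of day 4 from day 2 was -0.36 (adjusted p = 0.062, 11.0% called). Against FVB/NJ the group of 4 days was lower by a log2 difference of -0.46 (adjusted p = 0.013, 15.7% called), while 7 days differed by 0.09 (95% interval -0.17 to 0.34).

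The change from HSALR PBS in quadriceps minus that in gastrocnemius was 0.28 at 1 day (95% interval -0.14 to 0.69, adjusted p = 1.0), 0.39 at 2 days (-0.03 to 0.81, adjusted p = 0.784) and 0.34 at 4 days (-0.08 to 0.76, adjusted p = 0.479), where 0.0%, 0.0% and 1.38% of genes were called and 573, 890 and 1917 had an unadjusted p under 0.05. With same-numbered libraries as pairs the intervals were -0.08 to 0.63 (adjusted p = 0.755), 0.04 to 0.74 (adjusted p = 0.390) and -0.02 to 0.69 (adjusted p = 0.278), again with no call.

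Nascent RNA held more Clcn1 than total RNA in all 3 conditions. In total RNA the libraries held 52.9, 63.4, 57.7 and 64.7 TPM in HSALR PBS, 74.5, 59.1 and 78.7 at 1 day and 90.6, 85.7 and 81.5 at 2 days. In nascent RNA they held 229.2, 248.8, 244.0 and 267.2 TPM in HSALR PBS, 241.1, 285.9 and 266.6 at 1 day and 190.9, 210.4 and 198.4 at 2 days. At 2 days the total RNA libraries lay above all HSALR PBS libraries and the nascent ones below all of them.

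The log2 difference from HSALR PBS at 2 days was 0.52 in total RNA (adjusted p = 0.024, 0.590% of 13891 genes called) and -0.30 in nascent RNA (adjusted p = 0.080, 6.26% called, where the median of all genes was -0.11). The first was lost in all 7 fits that left out 1 library. At 1 day it was 0.24 in total (adjusted p = 0.886, 0.0144% called) and 0.10 in nascent RNA (adjusted p = 0.677, 1.05% called). The change in nascent minus that in total RNA was -0.83 at 2 days (95% interval -1.12 to -0.53, unadjusted p = 1.9e-05). Adjusted over all genes this was not called (adjusted p = 0.071), nor was any gene (0.0%, with 601 genes at an unadjusted p under 0.05). At 1 day the same difference was -0.14 (-0.44 to 0.15, adjusted p = 0.929, 0.0072% called).

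Library by library, the ratio of nascent to total TPM of Clcn1 was 4.15 ± 0.17 in HSALR PBS (SD, n = 4), 3.82 ± 0.88 at 1 day and 2.33 ± 0.20 at 2 days (SD, n = 3 each), and the libraries of 2 days, 2.11 to 2.46, lay below all of HSALR PBS, 3.93 to 4.33. The log2 differences between nascent and total RNA were 2.04, 1.89 and 1.21 and were called, as were 79.3%, 77.6% and 74.7% of all genes, whose median differences were 0.73, 0.84 and 0.65. Since most genes differ between the kinds of RNA and both are scaled to the same total, these ratios are relative to the other genes.

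At 3 months Clcn1 stood at 116.3, 108.2, 100.4 and 107.7 TPM in HSALR PBS and at 85.6 to 100.7 with a median of 92.8 in the 6 libraries after EEV4-PMO. The log2 difference was -0.22 (adjusted p = 0.064), where 7.65% of 13557 genes were called and the median of all genes was -0.17.

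The flanks and the level of Clcn1 were set side by side as shares of the way from HSALR PBS to wild type, with no test of the differences between them. On a scale where the mean of HSALR PBS is 0% and that of FVB/NJ is 100%, exon 7a with the shorter flank stood at 8.63 ± 8.60% with PMO, 80.3 ± 4.94% with the lower dose of EEV4-PMO and 92.9 ± 4.14% with the higher (SD, n = 4 each). With the longer flank the same groups stood at 6.95 ± 14.0%, 55.5 ± 14.3% and 85.7 ± 13.8%, and Clcn1 TPM at 10 ± 14.4%, 79.3 ± 24.7% and 119 ± 20.7%. In the quadriceps the shorter flank stood at 37.9 ± 45.3%, 65.8 ± 19.0%, 85.5 ± 9.86% and 83.7 ± 11.0% at 1, 2, 4 and 7 days. The longer flank stood at -0.105 ± 28.0%, 48.5 ± 24.3%, 48.4 ± 12.9% and 67.6 ± 7.02%, and TPM at 35.7 ± 26.8%, 86.4 ± 31.8%, 39.8 ± 16.0% and 113 ± 15.8%. At 4 days the lowest value of the shorter flank, 75.1%, lay above the highest of the longer flank, 64.5%, and of TPM, 60.5%. In gastrocnemius the shorter and longer flank stood at -1.75 ± 58.8% and 9 ± 32.4% at 1 day, 23.0 ± 16.3% and 23.8 ± 19.1% at 2 days and 57.4 ± 9.78% and 32.2 ± 24.3% at 4 days, and their libraries overlapped at each time. In nascent RNA the means of the flanks were close, 69.5% and 71.7% at 1 day and 67.8% and 67.7% at 2 days, while in total RNA they were 69.1% and 28.4%, and 78.0% and 49.7%. This cohort had no FVB/NJ group, so for both kinds of RNA the FVB/NJ mean of the quadriceps time course, from a different extraction, was the 100%. No nascent RNA of FVB/NJ was sampled. The nascent shares therefore rest on a wild-type level of RNA that was not nascent, and they are not comparable with those of total RNA.

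**Figure D5:**
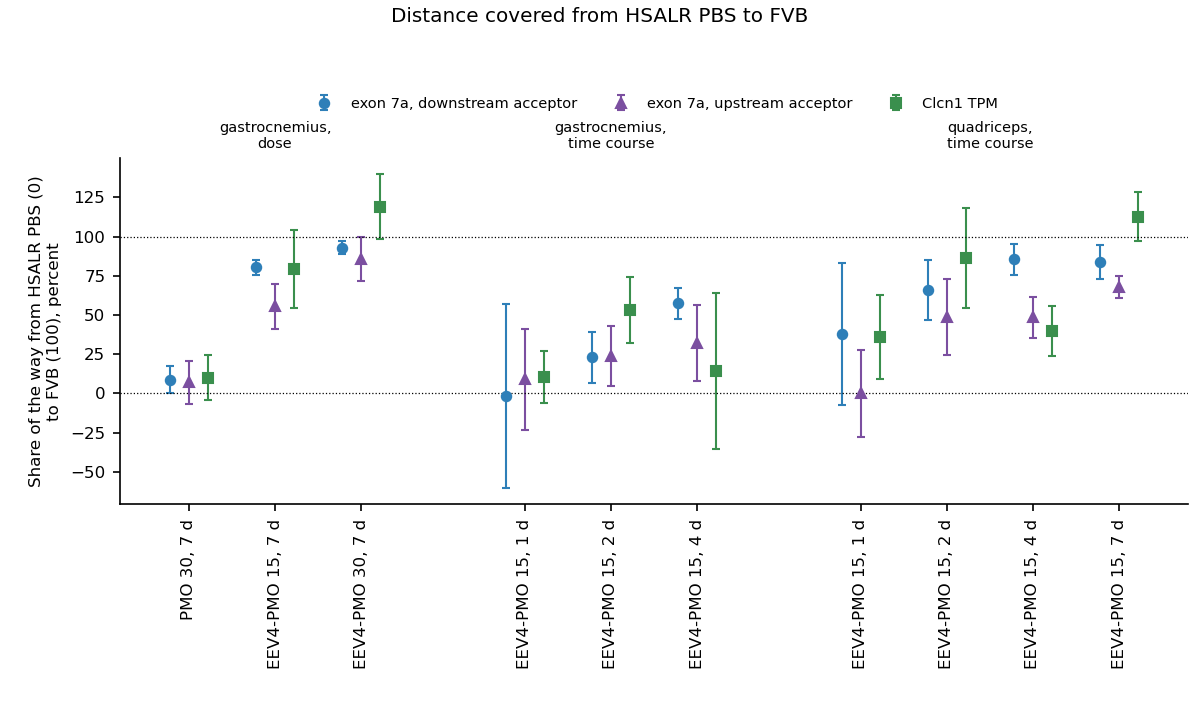
Share of the way from the mean of HSALR PBS (0) to the mean of FVB/NJ (100) covered by treated HSALR groups (vertical axis, percent), for exon 7a with either flank and for Clcn1 TPM (horizontal axis: group; numbers after PMO are mg/kg). Points are means and bars are SD over 4 libraries. At 4 days in quadriceps the shorter flank stands at 85.5% while the longer flank and TPM stand at 48.4% and 39.8%. The flanks count different joins as skipping, so their gap is no measure of a slower return.

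Exons of the authors' shorter table were ranked by this share, with no test, where FVB/NJ and HSALR PBS means differed by at least 0.1. In the 7-day gastrocnemius, exon 7a of Clcn1 ranked 9 of 34 from the most returned with 15 mg/kg and 10 of 34 with 30 mg/kg. Its own shares there were 80.3% and 92.6%, against medians over the exons of 64.8% and 85.9%. In the quadriceps at 1 day it ranked 4 of 33, at 40.9 ± 47.6% (SD, n = 4) against a median of 25.2%. At 2, 4 and 7 days it ranked 12, 13 and 12 of 33. In gastrocnemius it ranked 18, 9 and 8 of 32 at 1, 2 and 4 days. Where FVB/NJ was not sampled, the quadriceps time course gave the scale, and the rank was 6 and 11 of 33 in total RNA, 11 and 19 of 32 in nascent RNA and 12 of 33 at 3 months.

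Elsewhere in the gene 23 skipped-exon events were picked for a mean PSI above 0.9 in at least 1 group, so that their high PSI there is no finding, and 8 of them had a value in every library. Their lowest group mean was 0.977 outside the EU cohort, 0.971 in its total RNA and 0.884 in nascent RNA. Of these 8, 6 had a lower mean in nascent than in total RNA in all 3 conditions, and none was called. An exon of an annotated transcript, between exon 20 and exon 21, was included at 0.04 or less in every library. With exon 8 as the downstream flank, exon 7a had a value in 43 libraries only, of which the lowest was 0.691 and the median was 1.

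Other genes of the chloride channel family and of muscle excitability were read from lists. Of 10 other CLC channels and transporters, 7 were tested in the 7-day gastrocnemius. Of these 0 were called between FVB/NJ and HSALR PBS, where 20.6% of all genes were, and 1 rose at 15 mg/kg EEV4-PMO, where 11.1% of all genes were called. This was Clcn7, a chloride-proton exchanger of lysosomes, at 13.4 against 11.4 TPM (log2 difference 0.21, adjusted p = 0.039). The median log2 difference of the 7 was 0.04 between FVB/NJ and HSALR PBS and 0.14 at 15 mg/kg, beside 0.00 and 0.05 over all genes.

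Of 20 genes that set the excitability of the muscle membrane, 19 were tested. In FVB/NJ 4 were higher and 4 lower than in HSALR PBS. EEV4-PMO raised 6 at each dose and lowered 2 at the lower dose and 1 at the higher, and PMO called 0. Over all genes 20.6% were called in FVB/NJ, 11.1% and 15.0% at the lower and higher dose and 0.0% with PMO. Kcnab1, a potassium channel beta subunit, stood at 2.40 TPM in HSALR PBS, 18.6 in FVB/NJ (log2 difference 2.53, adjusted p = 2.6e-10), 5.05 with the lower dose (0.79, adjusted p = 0.0028) and 5.49 with the higher (0.89, adjusted p = 6.9e-04).

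Kcnn3, a calcium-activated potassium channel, was 5.39 TPM in HSALR PBS and 2.14 in FVB/NJ (log2 difference -1.02, adjusted p = 1.1e-04), while treated groups at 5.83 and 4.05 TPM gave no call. Fxyd1, phospholemman, a regulator of the sodium pump, was lower than in HSALR PBS (815 TPM) in FVB/NJ (678 TPM) and lower still with EEV4-PMO, at 572 and 564 TPM (adjusted p = 1.1e-06 and 1.6e-07). Slc12a2, the sodium-potassium-chloride cotransporter that brings chloride into the cell, rose from 52.5 to 72.4 and 66.8 TPM with EEV4-PMO, while FVB/NJ at 47.3 TPM gave no call. Median log2 differences of the 19 were 0.03 in FVB/NJ, 0.07 with the lower and 0.15 with the higher dose, beside 0.00, 0.05 and 0.05 over all genes.

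Of 20 genes of nonsense-mediated decay, all tested, 1 was higher and 3 lower in FVB/NJ, 1 rose at 15 mg/kg and 1 rose and 1 fell at 30 mg/kg. These counts are no larger a share of the list than the 20.6%, 11.1% and 15.0% called over all genes. Xrn1, the exonuclease that degrades decapped messages, rose from 10.1 to 12.0 and 11.7 TPM with EEV4-PMO. Smg5, which acts on phosphorylated UPF1, was 28.9 TPM in HSALR PBS and 34.5 TPM in FVB/NJ (adjusted p = 0.0025). Upf3a, a UPF factor, fell from 14.0 to 10.8 TPM at 30 mg/kg (adjusted p = 0.032). The median log2 difference of the list was -0.03 in FVB/NJ, 0.02 at 15 mg/kg and 0.04 at 30 mg/kg. Of 10 splicing factors tied to the repeat, 9 were tested, of which 1 was higher and 3 lower in FVB/NJ, 2 rose at 15 mg/kg, and 3 rose and 2 fell at 30 mg/kg, beside the same 20.6%, 11.1% and 15.0% of all genes. Median log2 differences of the 9 were -0.04, 0.11 and 0.11, against 0.00, 0.05 and 0.05 over all genes. Celf2 rose from 21.5 to 30.6 and 32.3 TPM with EEV4-PMO and was 32.9 TPM in FVB/NJ (log2 difference 0.60, adjusted p = 1.4e-06). Rbfox1, a splicing factor of muscle and brain, rose from 116 to 148 and 149 TPM (adjusted p = 0.0048 and 0.0025). Hnrnpa1, an hnRNP protein, was 169 TPM in HSALR PBS, 121 in FVB/NJ (-0.48, adjusted p = 5.1e-06) and 138 with the higher dose (-0.29, adjusted p = 0.0019). Mbnl1, a muscleblind protein, was 254 TPM in HSALR PBS and 215 in FVB/NJ (-0.24, adjusted p = 0.0064), and with EEV4-PMO at 274 and 275 TPM it gave no call.

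Among the genes whose group means followed Clcn1 TPM most closely over the 24 groups, centred within cohorts and kinds of RNA, were Phkg1 (Pearson r = 0.90), Tmem109 (0.88), Tada2a (0.87) and Klc2 (0.87), of 12764 genes compared. Phkg1 encodes the catalytic subunit of muscle phosphorylase kinase. For exon 7a with the shorter flank, events of Pdp1 (0.99), Nfix (0.98), Dctn4 (0.98), Mbnl1 (0.98) and Pdlim3 (0.97) had the highest r among 5644 events of other genes. Events of Trim55 (-0.99), Fermt2 (-0.98), Ppp1r12b (-0.98), Mical3 (-0.98) and Rilpl1 (-0.97) had the lowest. These values describe likeness over group means that share treatments, libraries and controls.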

How the data were processed

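Strand-specific libraries were made from mouse muscle RNA freed of ribosomal RNA, and the cohort with nascent RNA used a different extraction from the other cohorts, per the labels' protocols. The authors deposited TPM per gene, scaled to a sum of 999972 to 999994 per library, and PSI per splicing event as a fraction from rMATS, per the file headers. The submitters' processing notes name cutadapt, STAR, kallisto, GRCm38 and mm10. The rMATS version and counting mode are not given in the sources used here. Neither deposited table holds counts, so the depth behind a fraction or a TPM value is unknown and no interval on reads is given.

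Members and lists were chosen with earlier results of these data known. Groups came from the labels. PSI was fitted on the linear scale by limma 3.58.1 (R 4.3.3), keeping events that no library of the cohort lacked, with 1 coefficient a group and a trend in the prior variance. TPM was tested with limma on log2(TPM + 1) for genes with a mean of at least 1 TPM in the cohort, so fold changes of low genes are understated. P-values are two-sided and Benjamini-Hochberg adjusted over all features of a comparison. A call needed an adjusted p under 0.05 and, for events, a PSI difference of 0.1 or more. There were 37 comparisons and 5 differences of differences. Both fits were tested on simulated data.

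Named genes were the list members called between FVB/NJ and HSALR PBS or after EEV4-PMO in the 7-day cohort, at most 6 a list by size of change, of which some are given here, and those closest to Clcn1 by Pearson r. Exon sequences were read from the GENCODE vM21 transcripts (GRCm38). Nascent and total libraries of the same number were taken as pairs: the labels' protocols speak of corresponding total RNA, and deviations of log2 TPM from group means correlated at 0.101 to 0.335 in 10 pairs, 9 of which were closest to their own number. Alternatives were another flank, the shorter table, a logit scale, a PSI difference of 0.2, other filters, a replicate block, fits of the compared groups alone, equal medians, a pseudocount of 0.1, and leaving out libraries. Leaving out events of constant PSI and the blocks of nascent and total pairs and of muscle pairs were chosen after seeing the data. Some genes that the naming rules would give are not reported here.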

Additional observations from a re-analysis of the deposited data

How the results depend on the processing

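Among PSI differences of exon 7a, 244 of 262 values under the alternatives other than leaving out a library kept their direction and side of the threshold, and among TPM differences 176 of 188. The causes of the changes were not tested. The replicate number as a block left the PSI difference of FVB/NJ and HSALR PBS in gastrocnemius of 4 days at -0.342 but not called (adjusted p = 0.0952), likewise EEV4-PMO at 1 day against FVB/NJ there at 0.348 (0.0735) and the TPM difference of quadriceps at 4 days at 0.41 (0.053). Between the muscles, same-numbered libraries correlated at 0.0286 to 0.455 in their deviations, over 0.1 in every pair in 2 of 5 conditions (1 and 2 days), and 16 of 20 were closest to their own number. Pairing them, chosen after seeing the data, changed no call of Clcn1. Elsewhere, apart from nascent and total RNA, correlations ran from -0.243 to 0.377, and shared numbers paired libraries in 0 of 34 comparisons. With the pair block the TPM change in nascent minus total RNA at 2 days had an adjusted p of 0.166.

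The longer flank called 15 mg/kg (0.294, adjusted p = 0.0141), gastrocnemius at 2 days (0.440, 0.0333) and quadriceps at 1 day (0.713, 1.01e-04) against FVB/NJ, and not quadriceps at 4 days against HSALR PBS (-0.345, 0.179). It reversed values that were not called: gastrocnemius at 1 day (-0.052; -0.00275 in the shorter table), quadriceps at 1 day (0.00075), 4 against 2 days (0.00075) and 7 against 4 days (-0.137), and nascent against total RNA (-0.077, -0.268 and -0.127). A logit scale called gastrocnemius at 2 days (0.264, 0.0036) and quadriceps at 1 day (0.174, 0.0075) against FVB/NJ. Fitting the compared groups by themselves called gastrocnemius at 2 days against FVB/NJ (0.264, 0.0331) and not at 1 day (0.348, 0.713).

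For TPM, equal medians ended the calls of FVB/NJ against HSALR PBS (0.75, 0.0771) and 1 day against FVB/NJ (-0.64, 0.0904) in gastrocnemius, and in quadriceps those of 4 days against HSALR PBS (0.40, 0.16) and of 1 and 4 days against FVB/NJ (-0.52, 0.0511; -0.44, 0.0743). They reversed gastrocnemius at 4 days (-0.0500), which was not called. With no filter, 1 and 4 days against FVB/NJ in gastrocnemius (-0.56, 0.0645; -0.57, 0.0585) and quadriceps at 4 days (0.41, 0.0774) were not called. The compared groups alone ended 4 days against FVB/NJ in gastrocnemius (-0.57, 0.248) and 1 day in quadriceps (-0.51, 0.0841).

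A minimum difference of 0.2 left 2 and 3 Clcn1 events at 15 and 30 mg/kg, 3 in conjugated against unconjugated oligonucleotide, 1 and 2 in quadriceps at 4 and 7 days and 0 in nascent against total RNA of HSALR PBS and of 1 day. The compared groups alone gave 2 at 15 mg/kg, 2 against unconjugated PMO, 2 for FVB/NJ in gastrocnemius of 4 days, 1 and 2 in quadriceps at 4 and 7 days, and 0 at 15 mg/kg, 1 day in gastrocnemius and 1 day in quadriceps against FVB/NJ and in nascent against total RNA of 1 day. The logit scale gave 0 at 15 mg/kg, 3 at 2 days and 1 at 4 days in gastrocnemius and 3 at 1 day in quadriceps against FVB/NJ, 2 in quadriceps at 7 days, and 0 and 1 in nascent against total RNA of HSALR PBS and 2 days. The replicate block gave 2 for FVB/NJ in gastrocnemius of 4 days and, against FVB/NJ, 0 at 15 mg/kg, 1 and 0 at 1 and 2 days in gastrocnemius and 2 at 1 day in quadriceps.

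Leaving out 1 library at a time, the PSI difference in gastrocnemius of 4 days ran from -0.360 to -0.322 for FVB/NJ, from -0.0928 to 0.0549 at 1 day, from 0.250 to 0.397 at 1 day against FVB/NJ and from -0.134 to 0.014 between 2 and 1 days. In quadriceps it ran from -0.252 to -0.227 at 4 days, from -0.248 to -0.224 at 7 days, from 0.119 to 0.213 at 1 day against FVB/NJ and from -0.00875 to 0.0148 between 7 and 4 days, and in nascent RNA at 2 days from -0.360 to -0.243. The TPM difference in gastrocnemius ran from 0.57 to 0.74 for FVB/NJ, from -0.0435 to 0.285 at 4 days, and against FVB/NJ from -0.65 to -0.49 at 1 day and from -0.69 to -0.36 at 4 days. In quadriceps it ran from 0.28 to 0.49 at 1 day, from 0.35 to 0.46 at 4 days, from -0.164 to 0.0168 at 2 days and -0.53 to -0.41 at 4 days against FVB/NJ, and from -0.48 to -0.30 between 4 and 2 days. It ran from 0.47 to 0.56 in total RNA at 2 days and from -0.25 to -0.18 at 3 months. Depth per event is unknown, so events of few reads, such as the longer flank at 0 or 1, cannot be told from precise ones.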
